A study of Mus musculus with 17 samples.

Results

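Slfn2, a Schlafen family gene, had the lowest fitted fold change of any well-expressed gene in germinal centre B cells 48 h after a pulse of T cell help, and it was followed here together with 2 Schlafen relatives, Slfn1 and Slfn5, and 6 interferon-stimulated genes, Irf7, Isg15, Ifit3, Oasl2, Bst2 and Rtp4. The 9 genes were taken by symbol from 21827 gene symbols in the deposited single-cell count matrices. Their unique molecular identifiers (UMIs, each a counted RNA molecule) were summed per mouse and divided by that mouse's total to give counts per 1000000 UMIs (CPM). The genes were chosen by symbol with their 48 h fold changes known, and Slfn2 was selected on its rank there, so the 48 h values of the 9 genes are a description without a test, as are their other contrasts that use the 48 h mice.

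The cells came from lymph nodes of young adult mice that had been primed with ovalbumin and given B1-8hi B cells, which carry a heavy chain gene specific for the hapten NP. By the study's methods a minority of the transferred cells expressed the DEC-205 receptor, and the rest were Ly75-/-. Outside the CDK2 sort described below, that minority carried a doxycycline-repressible H2B-mCherry reporter driven through Vav-tTA, which is active across blood cells. The study describes the time course cells that it read for mutations, and also profiled for expression, as DEC-205-positive. Cells were sorted as germinal centre B cells, by the study's general gate positive for B220 and Fas and negative for CD38 and TCRb, while the stain listed for the CDK2 sort names no T cell receptor antibody. NP-OVA in alum started the response, and anti-DEC-OVA, an antibody that delivers ovalbumin to cells bearing DEC-205, was injected on day 7 in treated mice. The time course held 39 mice in 2 pools, namely 9 on day 7, 6 untreated on day 9, 9 treated on day 9 (48 h later), 8 untreated on day 10 and 7 treated on day 10 (72 h later). In a second experiment CDK2hi and CDK2low B cells were sorted 72 h after treatment from 7 mice. They were told apart by whether a DHB-tdTomato reporter from a single founder lay in the cytoplasm (C) or the nucleus (N). By the study these cells carried that reporter with or without H2B-GFP. A division experiment held 3 mice each on day 7, untreated on day 10 and treated on day 10. By the study its treated cells were sorted as DEC-205-expressing and mCherry-low, to take cells that had diluted the reporter by dividing. For division tracking the study gave mice doxycycline after the time of anti-DEC-OVA and kept them on it. Cells that never carried the reporter would also lack mCherry.

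After filtering, 46212 cells remained, 23698 from the time course, 11833 from the CDK2 sort and 10681 from the division experiment. Total UMIs per mouse ran from 1984426 to 13373185 in the time course, from 3988733 to 20394909 in the CDK2 sort and from 349784 to 4728692 in the division experiment. In every time course mouse the germinal centre genes Mef2b and S1pr2 were detected, and the 9 germinal centre B cell markers, some of them general B cell genes, summed to between 3498 and 6405 CPM. Plasma cell markers summed to between 855 and 3031 CPM, naive or memory B cell markers to between 99.9 and 540 CPM and the 5 T cell markers found in the files to between 47.0 and 106 CPM. Pools 1 and 2 shared 94 cell barcodes, and the C and N libraries shared 6.

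Schlafen proteins act on growth and on RNA. Slfn2 restrains the exit of lymphocytes from quiescence and protects transfer RNA from cleavage, Slfn1 is the founding member described in thymocyte growth, and Slfn5 belongs to the long members with a helicase-like domain. Interferon-stimulated genes are switched on when interferon receptors activate a transcription factor complex that contains IRF9 and binds a repeated GAAA element in promoters, and Irf7 encodes a transcription factor that in turn drives type I interferon genes. Isg15 encodes a ubiquitin-like protein that is attached to other proteins, Ifit3 a tetratricopeptide-repeat antiviral protein, Oasl2 an oligoadenylate synthetase-like protein, Bst2 the virion-holding protein tetherin, and Rtp4 a receptor transporter protein.

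On the mouse genome GRCm39 with GENCODE vM39 gene models, all 9 genes were protein-coding. The 3 Schlafen genes lay on the same strand of chromosome 11, Slfn5 at 82842100 to 82855666, Slfn2 at 82955609 to 82961504 and Slfn1 at 83007615 to 83013496. The other 6 lay on separate chromosomes, Irf7 on 7, Isg15 on 4, Ifit3 on 19, Oasl2 on 5, Bst2 on 8 and Rtp4 on 16.

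Promoters of 8 of the 9 genes were in the RefSeq promoter table (GRCm38.p6), which spans 250 bases before to 50 after each start; Rtp4 was not matched. The interferon response element was searched as GAAANNGAAA on both strands, and matches could overlap. It was present in 4 of the 8 promoters (50%) and in 3.44% of all 32851 promoter windows. The Isg15 promoter held 3 overlapping matches that began 78, 72 and 66 bases before the start. Bst2 held 2 overlapping matches at 130 and 124 bases, Ifit3 2 reverse-strand matches at 156 and 122 bases, and Slfn5 1 match at 155 bases. These letters were not in the windows of Slfn1, Slfn2, Irf7 and Oasl2. The 200 bases before the start of the 4 promoters with a match are shown, with the matches in capitals, and that of Slfn2 is shown beside them because it was selected on its 48 h rank and its window held no match. They lie at chr4:156200819-156201018 on the minus strand (Isg15), chr19:34583329-34583528 on the plus strand (Ifit3), chr8:71537473-71537672 on the minus strand (Bst2), chr11:82951902-82952101 on the plus strand (Slfn5) and chr11:83064912-83065111 on the plus strand (Slfn2), each written 5′ to 3′ in the direction of its gene.
Isg15: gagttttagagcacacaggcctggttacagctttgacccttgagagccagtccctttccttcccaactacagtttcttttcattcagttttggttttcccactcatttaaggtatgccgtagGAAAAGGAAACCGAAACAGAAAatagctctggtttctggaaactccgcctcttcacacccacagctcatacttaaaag
Ifit3: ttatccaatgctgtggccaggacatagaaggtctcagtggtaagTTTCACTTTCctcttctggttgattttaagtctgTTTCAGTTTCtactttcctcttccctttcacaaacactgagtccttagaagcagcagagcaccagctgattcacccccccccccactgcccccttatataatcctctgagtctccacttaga
Bst2: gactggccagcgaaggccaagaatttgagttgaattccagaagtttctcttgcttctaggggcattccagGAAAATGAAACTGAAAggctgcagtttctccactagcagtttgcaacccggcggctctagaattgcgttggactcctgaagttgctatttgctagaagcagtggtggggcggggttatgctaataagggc
Slfn5: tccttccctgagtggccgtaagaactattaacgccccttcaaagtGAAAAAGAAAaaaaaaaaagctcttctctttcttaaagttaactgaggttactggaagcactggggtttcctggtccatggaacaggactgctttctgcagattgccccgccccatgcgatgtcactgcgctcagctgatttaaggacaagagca
Slfn2: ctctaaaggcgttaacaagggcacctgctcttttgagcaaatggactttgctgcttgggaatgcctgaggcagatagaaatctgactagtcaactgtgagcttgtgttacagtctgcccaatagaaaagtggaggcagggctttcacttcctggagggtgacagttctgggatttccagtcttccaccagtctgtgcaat

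In CPM, Slfn2 separated the treated from the untreated mice completely at 48 h. In 9 treated day 9 mice it ran from 16.8 through a median of 27.8 to 44.7 CPM, and in 6 untreated day 9 mice from 66.2 through 70.4 to 99.5 CPM. Every treated mouse lay below every untreated mouse. In pool 1 the means were 30.3 in treated and 76.6 CPM in untreated mice, and in pool 2 they were 23.1 and 78.2 CPM. The fitted log2 fold change was −1.41 (SE 0.16), a level 2.66-fold lower. Among 6818 genes with an average log2 CPM above 4 this was rank 1, just ahead of Cr2 (−1.38), Rnpep (−1.32) and Cd55 (−1.30). Across all genes, 4.8% had every treated mouse below every untreated mouse at 48 h, a share from which nothing is read since this contrast entered the choice.

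**Figure D1:**
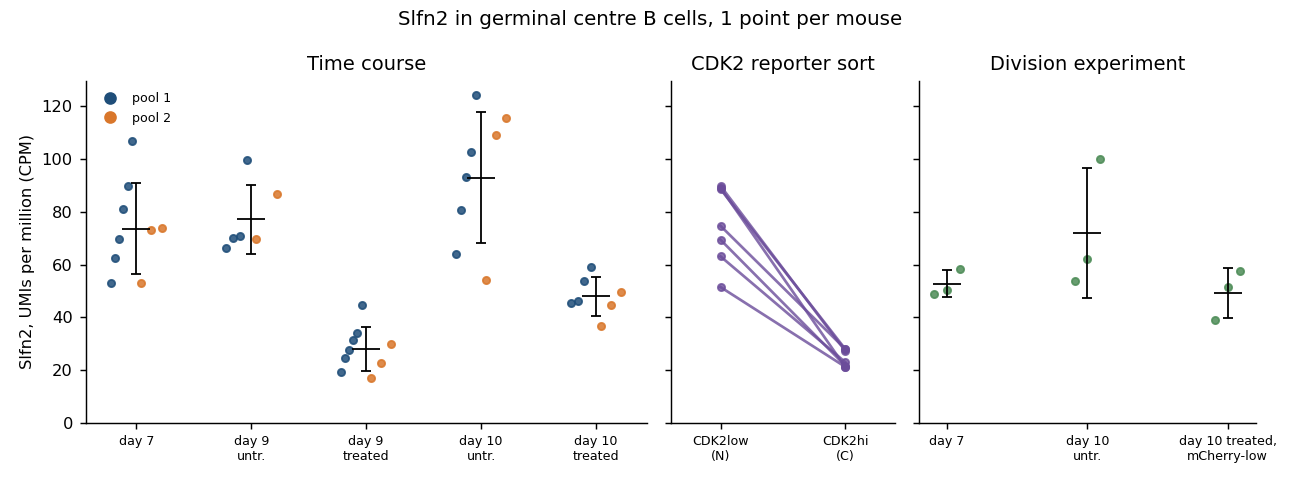
Slfn2 in CPM on a linear axis from 0, with 1 point per mouse and bars for the mean ± SD of a group, in the time course (blue, pool 1; orange, pool 2), the CDK2 reporter sort (lines join the populations of a mouse) and the division experiment. The 9 treated day 9 mice sit between 16.8 and 44.7 CPM, below all 6 untreated day 9 mice, and in the CDK2 sort the C point lies below the N point in 7 of 7 mice.

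The same cells differed in composition at 48 h. The study reports that by then DEC-205-bearing cells had gathered strongly in the dark zone of the germinal centre, where they proliferate. No comparison here separated dark zone from light zone cells, and the part of zone was not tested. In treated day 9 mice 17.5 to 24.6% of cells were scored as G1 and in untreated day 9 mice 46.6 to 56.9%. Markers of naive or memory B cells summed to between 99.9 and 204 CPM in treated and between 247 and 434 CPM in untreated mice, T cell markers to between 47.0 and 65.0 CPM and between 66.6 and 106 CPM, and plasma cell markers to between 1343 and 2747 CPM and between 855 and 2107 CPM, while germinal centre B cell markers had medians of 4240 and 5096 CPM. Fcer2a, 1 of the 6 naive or memory markers, was abundant (average log2 CPM 7.73) and itself ranked 9 among the falls (log2 fold change −1.16). That sum, here and below, can follow this gene and need not measure a share of cells. A B1-8hi receptor was found in 514 of 924, 424 of 799 and 570 of 983 cells in treated mice of pool 2. In untreated day 9 mice of that pool it was found in 268 of 773 and 292 of 753 cells. In pool 1 the lowest treated share was 390 of 553 cells and the highest untreated share 388 of 577. Cells of treated mice held more RNA, with medians of 10004 to 14467 UMIs per cell against 5030 to 7455. CPM is a share of all UMIs, so with more UMIs per cell a lower CPM need not be an equal fall per cell. In summed counts fewer cells that express Slfn2 and less Slfn2 RNA per cell cannot be told apart. Slfn2 was detected in 16.1 to 32.2% of cells in treated mice (median 20.5%) and 26.8 to 43.7% in untreated mice (median 32.4%). These ranges overlapped, and with UMIs thinned to 1 depth in each library the medians were 10.9 and 21.2%. Within cells scored as G1, Slfn2 averaged 94.0 CPM in treated and 142 CPM in untreated day 9 mice, within S 23.3 and 51.2 CPM, and within G2-M 19.4 and 43.1 CPM. Slfn2 was thus lower on average in treated mice in each of the 3 phases, and in each group it was highest in G1. The groups overlapped within each phase. In G1 they ran from 58.8 to 144 CPM in treated and 104 to 175 CPM in untreated mice, and in S from 12.3 to 39.2 and 37.1 to 65.1 CPM. In G2-M they ran from 12.5 to 28.7 and 23.3 to 58.7 CPM. In G1 cells alone the fitted log2 fold change was −0.60, and the part of the other differences in it was not tested.

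Slfn1 was rare, with 64 UMIs over the 6 untreated and 27 over the 9 treated day 9 mice. It ran from 1.29 to 2.90 CPM in untreated and from 0.0748 to 1.39 CPM in treated mice, a fitted log2 fold change of −2.56, and the groups overlapped through 1 treated mouse. Slfn5 was also low and overlapped widely, at 0.394 to 2.39 CPM in untreated and 0.243 to 4.79 CPM in treated mice (log2 fold change 0.29).

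The interferon-stimulated members, unlike Slfn2, overlapped between treated and untreated mice at 48 h. Their fitted log2 fold changes were 0.05 for Irf7, 0.18 for Isg15, −0.24 for Ifit3, −0.13 for Oasl2, 0.46 for Bst2 and 0.41 for Rtp4. Irf7 had a mean of 28.2 ± 12.5 CPM (SD, n = 9) in treated and 28.1 ± 8.99 CPM (SD, n = 6) in untreated mice, and Isg15 had 13.5 ± 8.13 and 12.2 ± 6.06 CPM. Bst2 stood at 39.8 ± 11.4 CPM in treated and 30.2 ± 9.29 CPM in untreated mice. In G1 cells its means were 58.2 and 33.0 CPM. Counting all members, 4 of 9 values lay below 0 and 5 above, with a median of 0.05 beside 0.01 over all genes tested. In this contrast 21.1% of all genes were called lower and 26.3% higher, which are shares of calls and not of signs. The pools differed, with 2 of 8 fitted values below 0 in pool 1 alone, where Slfn1 was too low to fit, and 8 of 9 in pool 2 alone. Isg15 averaged 15.4 CPM in treated and 10.4 CPM in untreated mice of pool 1, but 9.65 and 15.7 CPM in pool 2. More cells of pool 2 had a mitochondrial share of 10% or more and were left out. They numbered 3114 of 13187 assigned cells, against 350 of 13976 in pool 1. The part of this in the differences between pools was not tested.

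**Figure D2:**
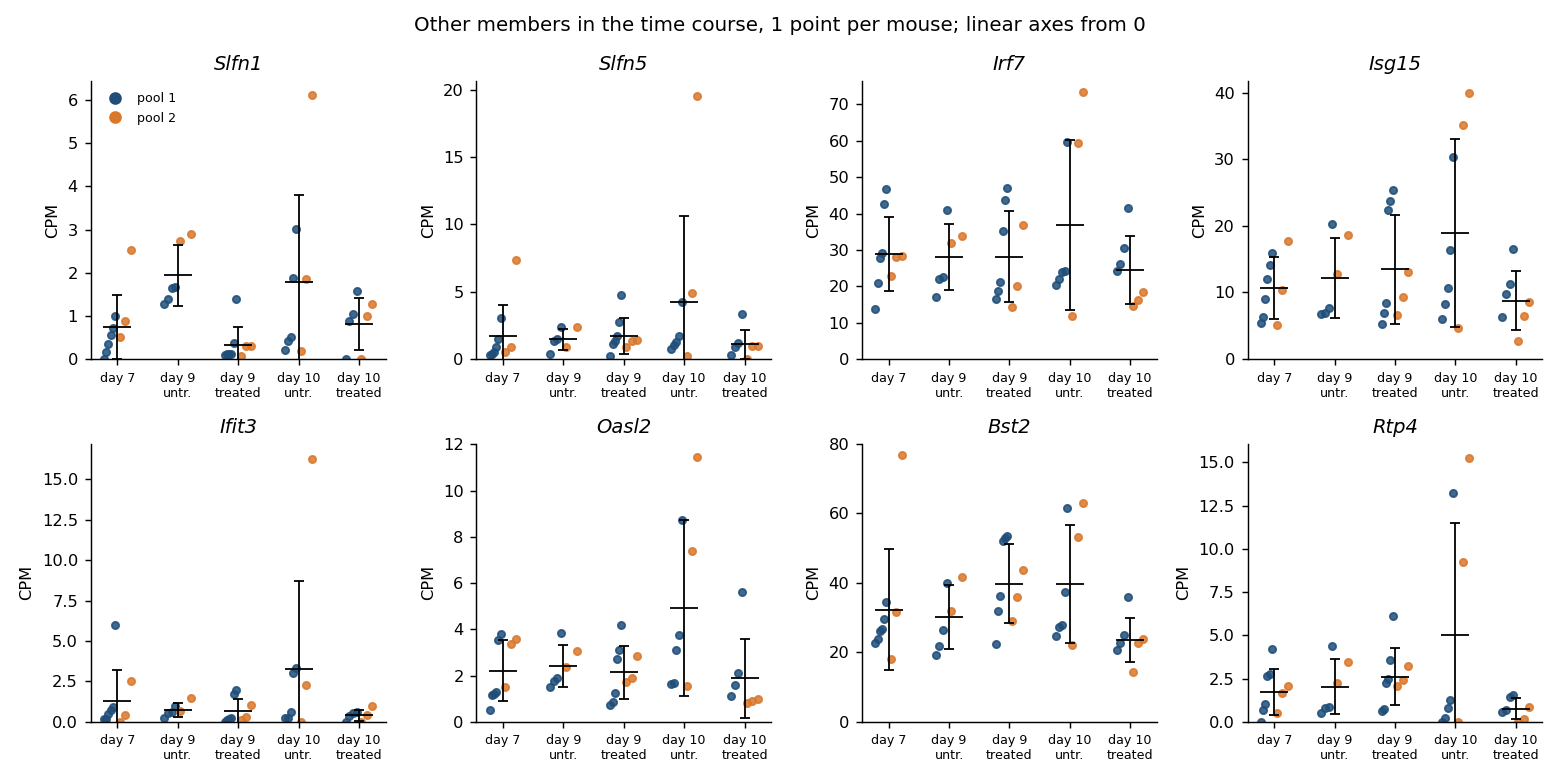
The 8 members other than Slfn2 in the time course, in CPM on linear axes from 0, with 1 point per mouse (blue, pool 1; orange, pool 2) and bars for the mean ± SD of each group. Except for Bst2, the widest ranges are among untreated day 10 mice, where Irf7 runs from 11.8 to 73.4 CPM and Ifit3 from 0 to 16.3 CPM. Bst2 ranges most widely on day 7, from 18.1 to 76.9 CPM.

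The comparison of treated with untreated mice on day 10 asked whether these differences were present 72 h after treatment, in other mice than those of the 48 h contrast. The genes were chosen with earlier results of these mice known as well, so this is not independent evidence. Slfn2, Ifit3 and Rtp4 fell and no member rose by edgeR's quasi-likelihood test at an adjusted p of 0.05, against 3.88% of all genes lower and 4.67% higher. At an unadjusted p of 0.05, 7 members were lower and 0 higher, and DESeq2 called 3 lower and 0 higher. All 9 fitted log2 fold changes were below 0, with a median of −1.02, beside −0.00 over all genes tested.

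Slfn2 ran from 36.5 through a median of 46.1 to 59.2 CPM in 7 treated mice and from 54.0 through 98.0 to 124 CPM in 8 untreated mice. The groups overlapped through a single untreated mouse at 54.0 CPM. The log2 fold change was −0.97 (SE 0.16, edgeR adjusted p = 8.4e-05), a level 1.95-fold lower. It lay between −1.04 and −0.90 when each of the 15 day 10 mice was left out in turn, with edgeR adjusted p from 1.3e-05 to 0.000534, and it was −0.997 (adjusted p = 2.43e-05) in G1 cells alone. The share of G1 cells on day 10 was 38.1 to 57% in treated and 39.3 to 56.1% in untreated mice. Naive or memory B cell markers had medians of 279 CPM in treated and 354 CPM in untreated mice. In pool 1 these markers ran from 255 to 331 CPM in treated and from 341 to 462 CPM in untreated mice. T cell markers had medians of 80.0 CPM in treated and 93.1 CPM in untreated mice. The part of either marker set in the result was not tested. Pool 1 alone gave −0.84 (edgeR adjusted p = 0.00542) and pool 2 alone −1.17 (adjusted p = 0.0668). In treated mice the fitted level at 72 h was above that at 48 h by 0.70 and below day 7 by 0.60 on the log2 scale, which are descriptions since the first shares the 48 h mice. No member had every treated mouse below every untreated mouse, as 0.205% of all genes had.

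Ifit3 and Rtp4 were rare and their falls rested on few mice. Ifit3 ran from 0 through 0.440 to 0.949 CPM in treated and from 0 through 1.44 to 16.3 CPM in untreated mice (log2 fold change −2.78, SE 0.88, edgeR adjusted p = 0.0405). Rtp4 ran from 0 through 0.702 to 1.57 CPM in treated and from 0 through 1.02 to 15.2 CPM in untreated mice (log2 fold change −2.54, SE 0.79, edgeR adjusted p = 0.0353). The ranges overlapped for both. Over the 15 fits that each left out 1 day 10 mouse, Ifit3 passed in 5 and Rtp4 in 8. Leaving out untreated mouse D3 gave −1.40 for Ifit3 (edgeR adjusted p = 0.391) and −1.94 for Rtp4 (adjusted p = 0.146). Without any 1 of the untreated mice M21 and D3 or the treated mice M23, M24, E1 and E3, a single member, Slfn2, stayed below the threshold, whereas 5 passed without treated mouse M26 and 6 without untreated mouse D1. A single member passed in pool 1 alone and 0 in pool 2 alone.

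The other 6 members did not pass. Their log2 fold changes were −0.94 for Slfn1 (edgeR adjusted p = 0.339), −1.82 for Slfn5 (0.0931), −0.56 for Irf7 (0.333), −1.02 for Isg15 (0.133), −1.29 for Oasl2 (0.0628) and −0.71 for Bst2 (0.0782). Irf7 in pool 1 alone was 0.092, so its direction held in the pooled fit and not within that pool.

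**Figure D3:**
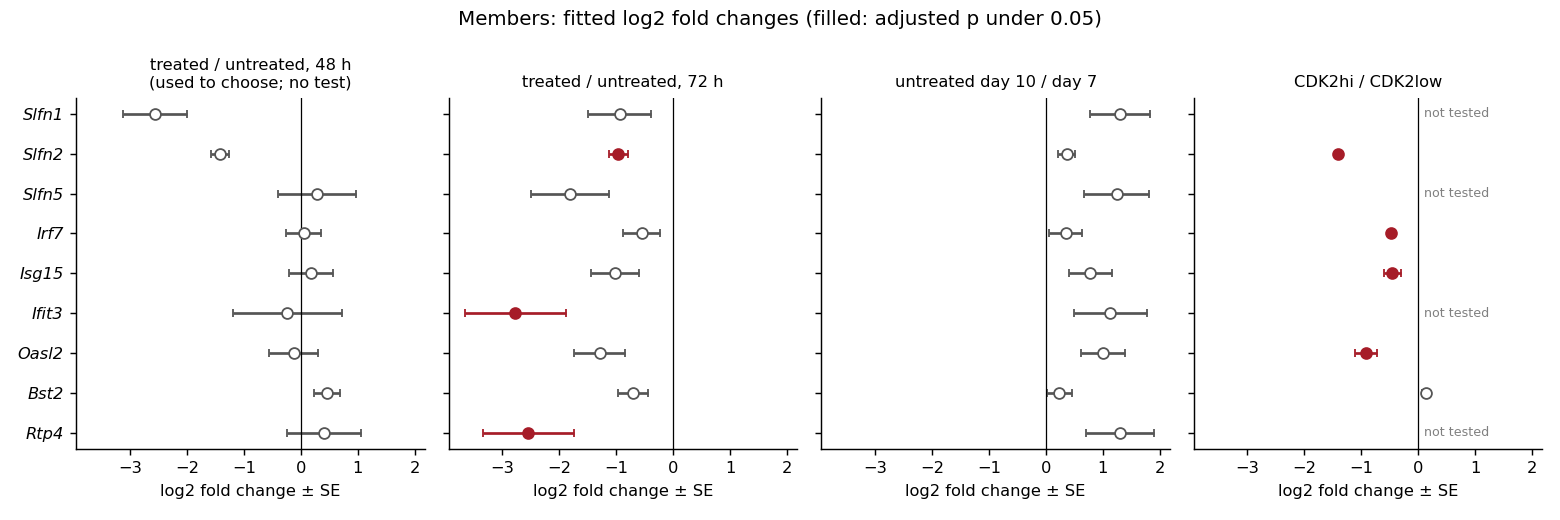
Fitted log2 fold changes of the 9 members with their SE in 4 comparisons; filled red points have an edgeR adjusted p under 0.05, and the 48 h comparison, which entered the choice of genes, is drawn without calls. Slfn2 lies at −1.41 at 48 h, −0.97 at 72 h and −1.41 in the CDK2 sort, while untreated day 10 mice lie above day 7 for all 9 members with no call.

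Untreated mice on day 10 were compared with day 7, and these untreated mice also serve as controls at 72 h, so the values are set side by side only. All 9 log2 fold changes were above 0, with a median of 1.002, and 0 of 9 members passed edgeR's test (background 1.79% higher and 2.62% lower), with 6 higher at an unadjusted p of 0.05 and 0 by DESeq2. The values were 0.36 for Slfn2 (edgeR adjusted p = 0.15), 1.30 for Slfn1 (0.164), 1.24 for Slfn5 (0.226), 0.35 for Irf7 (0.585), 0.78 for Isg15 (0.252), 1.13 for Ifit3 (0.353), 1.002 for Oasl2 (0.139), 0.24 for Bst2 (0.647) and 1.30 for Rtp4 (0.231). Without mouse D3 the value for Ifit3 was −0.16.

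A few individual mice carried much of the untreated day 10 level. Among the 39 time course mice, D3 and D2 of pool 2 and M21 of pool 1, all untreated on day 10, were among the 3 highest for 8, 7 and 7 of the 9 members, and the next mouse for 2. Irf7 stood at 73.4, 59.4 and 59.6 CPM in D3, D2 and M21, and at 11.8 to 24.2 CPM in the other 5 untreated day 10 mice. Isg15 stood at 39.9, 35.1 and 30.4 CPM, against 4.66 to 16.3 CPM in the other 5. Rtp4 stood at 15.2, 9.25 and 13.2 CPM, and Oasl2 at 11.5, 7.40 and 8.73 CPM. Slfn2 was also high in them, at 109, 116 and 124 CPM. Plasmacytoid dendritic cell markers, a cell type that makes interferon and bears Bst2, summed to at most 0.782 CPM in the untreated day 10 mice, with Siglech and Klk1 at 0, and macrophage and monocyte markers to at most 17.4 CPM in the same mice. NK cell markers summed to 3.78 CPM in D3, the highest of the 39 mice, and T cell markers to between 77.5 and 100.8 CPM in untreated day 10 mice. Their part in the result was not tested.

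In some mice a few cells held most of the UMIs. In D3, 1% of its 1045 cells held 95.7% of the Slfn1 UMIs, 60.0% of the Ifit3 UMIs and 52.7% of the Slfn5 UMIs, genes seen in few cells. On day 7 mouse A1 had 76.9 CPM of Bst2, 68.0% of it in 1% of its cells, and it also had 51.9 CPM of plasmacytoid dendritic cell markers, with Siglech at 33.2 CPM, and 3031 CPM of plasma cell markers, the highest of the 39 mice. On day 9 the treated mice M13, M14 and M15 had 23.7, 22.4 and 25.4 CPM of Isg15, against 5.22 to 13.1 CPM in the other 6.

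Across the 39 time course mice the interferon-stimulated members varied together, and Slfn2 followed them less closely. Pearson's r of log2(CPM + 1), each value relative to the mean of its pool, ran from 0.59 to 0.87 over the 21 pairs of Irf7, Isg15, Ifit3, Oasl2, Bst2, Rtp4 and Slfn5, with a median of 0.76. Slfn1, left out of these pairs, had r from 0.36 (Bst2) to 0.66 (Ifit3) with the same genes. For Slfn2 with the other 8 members r ran from 0.10 (Bst2) to 0.52 (Slfn1), with a median of 0.33. The genes most like Slfn2 among 6818 were Tapbp (r 0.93), H2-T23 (0.91), Man1a (0.91), Pkib (0.90) and Gimap3 (0.89). Tapbp encodes tapasin, which loads peptides onto MHC class I, and H2-T23 is itself a non-classical class I gene. These are descriptions over mice that share libraries and conditions, and they include the 48 h mice on which Slfn2 was selected, which bears on how closely it can follow the other members.

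The CDK2 sort asked how the genes differed between cells with high and with low CDK2 activity within the same mice. The genes were chosen with earlier results of this sort known as well, so it is not independent evidence. Slfn2, Irf7, Isg15 and Oasl2 fell in CDK2hi cells by edgeR with mouse as a block, and Bst2 did not pass. The background was high, since 38.6% of all genes passed lower and 36.5% higher, so 4 of 5 members lower is read beside those shares. No member rose, with 1 at an unadjusted p of 0.05 and 0 by DESeq2. Slfn1, Slfn5, Ifit3 and Rtp4 were below the count filter and had means under 2 CPM in both populations. Each population was a single library, so population and library cannot be told apart.

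In the C population Slfn2 ran from 21.1 through 23.0 to 27.98 CPM and in the N population from 51.5 through 74.7 to 89.9 CPM. It was lower in C in 7 of 7 mice with no overlap (log2 fold change −1.41, SE 0.06, edgeR adjusted p = 1.9e-17), a level 2.65-fold lower. Irf7 ran from 13.8 to 19.2 CPM in C and from 22.4 to 31.9 CPM in N, again without overlap (log2 fold change −0.47, edgeR adjusted p = 2.2e-07). Of all genes, 32.9% had every C value below every N value. Isg15 averaged 4.95 ± 1.45 CPM in C and 8.83 ± 3.61 CPM in N (SD, n = 7; log2 fold change −0.45, edgeR adjusted p = 0.0071), and Oasl2 1.18 ± 0.469 and 2.65 ± 1.20 CPM (−0.92, adjusted p = 0.00015). Both were lower in C in 7 of 7 mice, and their ranges overlapped. Median UMIs per cell were 8939 to 11754 in C and 10563 to 14838 in N. With UMIs thinned to 1 depth in each library Slfn2 and Irf7 remained called, Isg15 was −0.43 (edgeR adjusted p = 0.0504) and Oasl2 was too low to be tested.

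Bst2 was nearly level, at 20.7 ± 2.57 CPM in C and 21.5 ± 2.85 CPM in N. Its log2 fold change was 0.13 (edgeR adjusted p = 0.054), and its sign depended on scaling. Scaling by library totals instead of TMM shifted the median of all genes by −0.20, and then Bst2 was −0.063 (adjusted p = 0.351), Slfn2 −1.60, Irf7 −0.67, Isg15 −0.65 and Oasl2 −1.11. Leaving out mouse replicate 5 gave 0.17 for Bst2, which then passed.

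The populations differed in cycle phase, with 12.6 to 19.1% of C cells and 52.7 to 63.2% of N cells scored as G1, and in naive or memory B cell markers, at 100 to 181 CPM in C and 334 to 536 CPM in N. Germinal centre B cell markers summed to between 3552 and 3887 CPM in C and between 4646 and 5202 CPM in N, T cell markers had medians of 53.2 and 82.6 CPM, and mitochondrial UMIs made up 3.03 to 3.39% and 3.41 to 3.86%. Their part in the results was not tested. The study's own CDK2 comparison kept cells with a dark zone expression profile, whereas cells of both zones were pooled here. Within G1 cells Slfn2 remained lower in C (means 52.3 and 98.0 CPM, log2 fold change −0.81, edgeR adjusted p = 1.19e-12), as did Irf7 (−0.45, adjusted p = 0.00227). Bst2 was higher in C within G1 (means 28.9 and 20.8 CPM, 0.52, edgeR adjusted p = 6.37e-05), whereas within G2-M its means were 14.8 and 24.5 CPM. Isg15 in G1 cells had a fitted value of 0.27 (edgeR adjusted p = 0.292), opposite in sign to all cells together, while its mean CPM in G1 was 8.60 in C and 9.36 in N. Oasl2 was too low to be tested in G1 cells, where its means were 2.61 ± 2.18 CPM in C and 2.97 ± 0.861 CPM in N (SD, n = 7). In S the means of Slfn2 were 20.8 CPM in C and 60.7 CPM in N, and in G2-M they were 20.1 and 25.1 CPM.

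**Figure D4:**
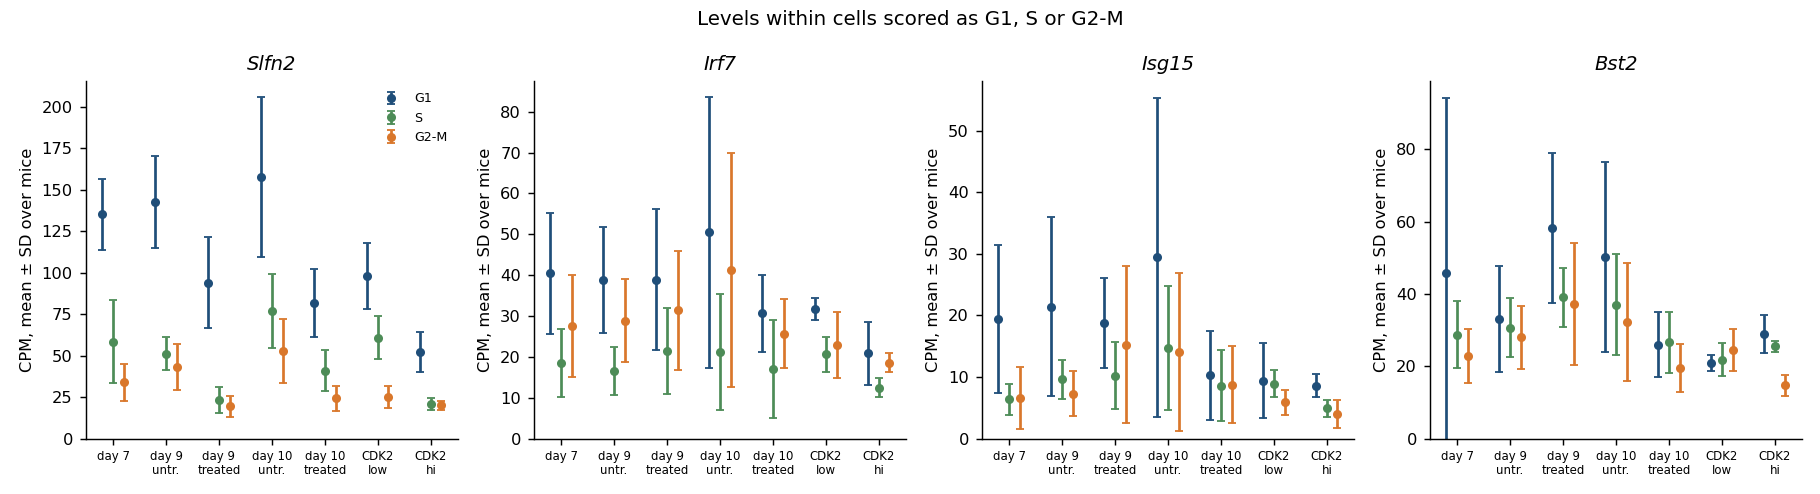
Slfn2, Irf7, Isg15 and Bst2 within cells scored as G1 (blue), S (green) or G2-M (orange), as means ± SD over mice in CPM on linear axes from 0. Slfn2 is highest in G1 in each of the 7 groups, 94.0 CPM in treated and 142 CPM in untreated day 9 mice, and Bst2 in G1 is higher in CDK2hi (28.9 CPM) than in CDK2low cells (20.8 CPM).

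The division experiment gave a separate set of day 10 mice, with shallower cells (medians of 1414 to 1992 UMIs per cell) and treated cells gated on low mCherry. Slfn2 stood at 50.4, 58.5 and 49.0 CPM on day 7, at 62.3, 53.8 and 100.1 CPM in untreated day 10 mice, and at 38.8, 57.4 and 51.6 CPM in treated day 10 mice. The treated values overlapped the untreated ones (log2 fold change −0.33, edgeR adjusted p = 0.404). Irf7 stood at 37.4, 25.8 and 31.4 CPM in untreated and at 27.1, 35.8 and 70.6 CPM in treated mice, and Bst2 at 37.4, 33.2 and 20.01 CPM in untreated and 36.4, 39.3 and 82.1 CPM in treated mice. The third treated mouse was the highest for both genes. Plasma cell markers summed to between 1503 and 3203 CPM in treated mice, highest in that mouse, and to between 1012 and 1106 CPM in untreated day 10 mice, and T cell markers to between 47.2 and 60.4 CPM and between 89.1 and 117 CPM. A B1-8hi receptor was found in 46 of 1765, 64 of 1851 and 16 of 1958 cells of the treated mice. In untreated day 10 mice it was found in 53 of 515, 160 of 1157 and 17 of 211 cells. The part of the markers and of this share in these values was not tested.

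Of the 4 members tested there, 0 passed edgeR's test between treated and untreated mice (background 1.12% lower and 0.826% higher), with 1 lower and 2 higher at an unadjusted p of 0.05 and 0 by DESeq2. Bst2 was 0.70 (edgeR adjusted p = 0.22), Irf7 0.60 (0.39) and Isg15 0.19 (0.92). Leaving out treated replicate 1 brought Bst2 and Irf7 past the threshold at 0.91 and 0.86, leaving out treated replicate 2 brought Bst2 past it at 0.87, and without treated replicate 3 Isg15 was −0.74. Between untreated day 10 and day 7 all 4 values were above 0, namely 0.21 for Slfn2, 0.50 for Irf7, 0.50 for Isg15 and 0.48 for Bst2, and 0 passed by edgeR, 0 at an unadjusted p of 0.05 and 0 by DESeq2 (background 0.386% higher and 0.264% lower).

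Other Schlafen genes moved in different directions. Of the 3 that passed the count filter, Slfn8 fell in treated mice at 72 h (−1.14, edgeR adjusted p = 0.00533) and in CDK2hi cells (−0.87, adjusted p = 4.4e-05), and it was higher on day 10 than on day 7 in untreated mice (0.95, adjusted p = 0.0142), a call that was lost without mouse D3. Slfn3 instead rose in treated mice at 48 h (0.46, edgeR adjusted p = 0.00164) and in CDK2hi cells (0.69, adjusted p = 1.69e-05), and at 72 h it was −0.26 (adjusted p = 0.24). The fall of Slfn8 at 72 h was −0.85 (edgeR adjusted p = 0.0662) in B1-8hi cells and −1.07 (adjusted p = 0.056) with UMIs thinned to a common depth, whereas in G1 cells it was −1.81 at 72 h (adjusted p = 0.00145). In G1 cells of the CDK2 sort Slfn8 was −0.0058 (edgeR adjusted p = 0.987). The 48 h call of Slfn3 was lost with thinned UMIs, and in G1 cells it was too low to be tested. Slfn8 at 48 h was −0.15 (edgeR adjusted p = 0.673). Slfn9 passed in none of these comparisons. In the division experiment 1 other Schlafen gene was tested between treated and untreated day 10 mice. It stood at 0.74 without a call by edgeR, opposite in sign to the 3 values at 72 h, which were all below 0. Schlafen genes lie side by side and are similar in sequence, so reads could be split between them.

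A list of 62 other interferon-stimulated genes, 51 of them tested in the time course, gave the wider picture. In treated mice at 72 h 15 fell and 0 rose by edgeR, with a median log2 fold change of −0.43, against 3.88% of all genes lower. They included the interferon-inducible HIN-200 genes Ifi203 (−1.05, edgeR adjusted p = 0.0179) and Mndal (−0.86, adjusted p = 0.0097) and the small hydrophobic-protein gene Ifi27l2a (−0.90, adjusted p = 0.0185). The count ran from 8 to 21 when each mouse was left out, falling to 8 or 9 without the untreated mice M21, D2 or D3 or the treated mice M25, E1 or E3. At 48 h, where 21.1% of all genes were lower and 26.3% higher, 9 fell, among them the guanylate-binding protein gene Gbp3 (−0.71, edgeR adjusted p = 0.000111), Phf11b (−0.57, adjusted p = 0.0028) and Epsti1 (−0.41, adjusted p = 0.000189), and 2 rose, Eif2ak2, which encodes the RNA-activated kinase PKR (0.43, adjusted p = 0.0475), and Ifi27 (0.39, adjusted p = 0.0475). In G1 cells alone 0 of 46 fell and 8 rose, against 4.77% of all genes lower and 4.79% higher in that fit. Over all cells DESeq2 called 10 of the 51 lower and 0 higher at 48 h. In untreated mice on day 10 against day 7, 0 fell and 3 rose, against 2.62% of all genes lower and 1.79% higher, Shisa5 with 0.37 (edgeR adjusted p = 0.00964), and that count ran from 1 to 9 when a mouse was left out, at 1 without M04, M05, M21 or D2, and at 5, 6 and 9 without A2, M19 and D1.

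In CDK2hi cells 40 of the 47 tested fell and 1 rose, with a median of −0.56, against 38.6% of all genes lower. In G1 cells alone 18 of 41 fell and 5 rose, against 31.3% of all genes lower and 30.7% higher in that fit. Ifi47 and Phf11b were both at −0.86 and Dtx3l at −0.83, and Nmi rose (0.19, edgeR adjusted p = 0.0002). In the division experiment 2 of 39 rose, Ifi35 (0.53, edgeR adjusted p = 0.0281) and Ifi47 (1.19, adjusted p = 0.0406), and 0 fell, against 0.826% of all genes higher and 1.12% lower. DESeq2 called 0 of the 39 in either direction. By edgeR at an unadjusted p of 0.05, 12 were higher and 1 lower. The median there was 0.28, with 30 values above 0 and 9 below, opposite in sign to the time course median at 72 h. Of the 46 genes of this list with a promoter in the table, 25 (54.3%) held the GAAANNGAAA element in at least 1 window, against 3.99% of all 27025 genes there.

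**Figure D5:**
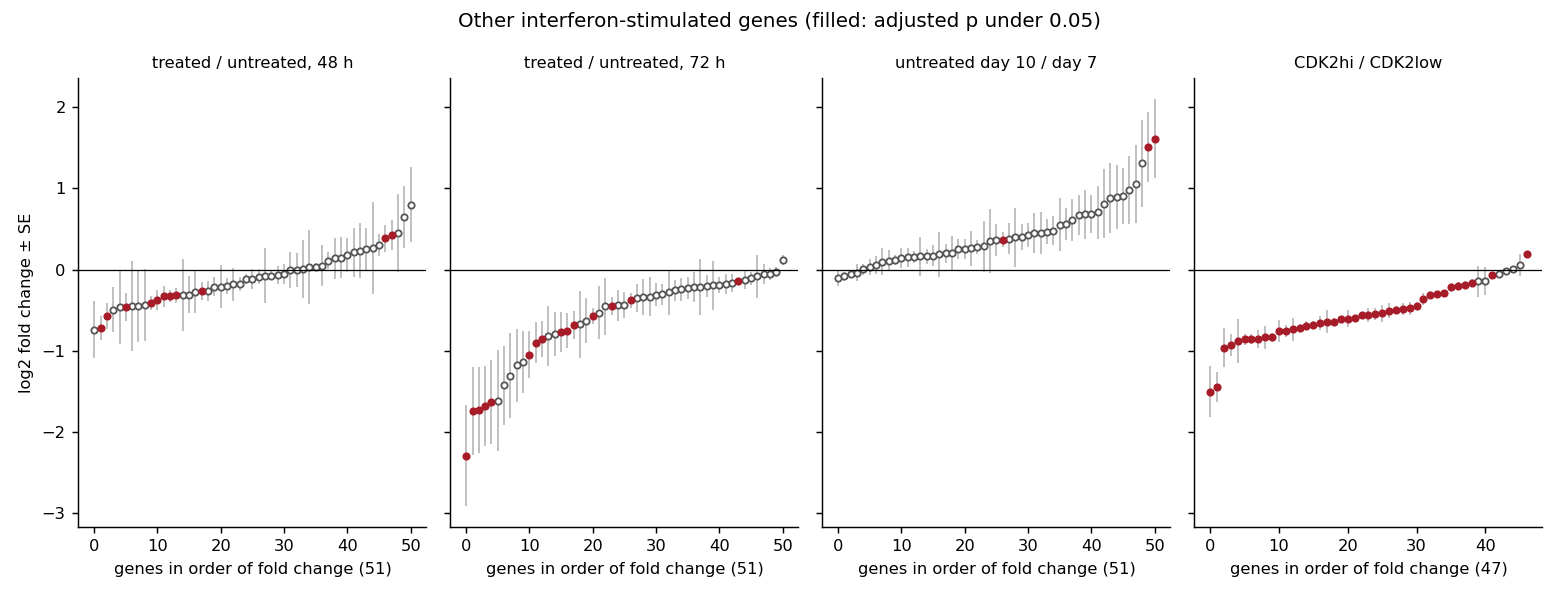
Fitted log2 fold changes with SE of the other interferon-stimulated genes, in order of their value, in 4 comparisons; filled red points have an edgeR adjusted p under 0.05. Of 51 genes in the time course, 15 are filled below 0 at 72 h and 9 at 48 h, and of 47 in the CDK2 sort 40 are filled below 0.

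Interferon transcripts themselves were near the limit of detection, with 0 UMIs of Ifna4 and Ifnb1, 3 of Ifng and 14 of Ifnk over the whole time course. Of 30 tested genes of the interferon pathway (receptors, kinases, transcription factors and sensors), 2 fell and 0 rose at 72 h, against 3.88% of all genes lower, and these were the receptor chains Ifnar2 and Ifngr2. Ifnar2, a chain of the type I interferon receptor, averaged 5.82 ± 1.02 CPM in 7 treated and 10.4 ± 2.65 CPM in 8 untreated mice (log2 fold change −0.83, edgeR adjusted p = 0.000172), and Ifngr2, a chain of the interferon gamma receptor, was −0.32 (adjusted p = 0.0153). The count was 1 without treated mouse M25 or E1. Irf9 at 72 h was −0.55 (edgeR adjusted p = 0.204). At 48 h 15 of 30 fell and 0 rose, beside 21.1% of all genes lower and 26.3% higher, among them Irf4 (−0.97, edgeR adjusted p = 7.16e-05), Irf1 (−0.65, adjusted p = 0.0299) and Ifngr2 (−0.59, adjusted p = 1.7e-07), but 2 of 28 fell in G1 cells alone, where 4.77% of all genes did. Ifnar1 was −0.23 (edgeR adjusted p = 0.042) and Ifnar2 0.14 (0.363).

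In CDK2hi cells 23 of 28 pathway genes fell and 2 rose, against 38.6% of all genes lower and 36.5% higher. Tlr9, the endosomal sensor of DNA, stood at −0.86, Ifngr2 at −0.74 and Irf5 at −0.68, whereas Tbk1 and Ptpn2 rose by 0.20 each, a direction that was not called with library totals. In the division experiment 2 of 27 pathway genes rose and 1 fell in treated mice, against 0.826% of all genes higher and 1.12% lower, and DESeq2 called 1 higher and 0 lower. Irf1 was 0.97 (edgeR adjusted p = 0.00458), and the fall was that of Unc93b1 (−0.30, adjusted p = 0.0323).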

How the data were processed

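Single-cell 5′ gene expression was analysed from 5 libraries together with their hashtag libraries; a further pool with hashtag and receptor libraries only was not analysed here. The authors deposited UMI counts per gene and cell; per the labels they were made with Cell Ranger 6.0.1 and Seurat 5.1.0 on mm39, and per the file headers with Cell Ranger 7.1.0 (division experiment) or 8.0.1. Other deposited columns (feature types, barcodes) held no measurement. From these counts, cells were assigned to mice with Seurat 5.3.0 (HTODemux, positive quantile 0.99), hashtag doublets were removed, and a cell was retained if it showed 200 or more genes and a mitochondrial share below 10%. CellCycleScoring used 43 S and 54 G2-M genes, and 6.09% of cells had their higher score within 0.05 of the cut at 0. UMIs were summed per mouse, the replicate, and tested with edgeR 4.0.16 (quasi-likelihood, TMM, filterByExpr, Benjamini-Hochberg over all genes, threshold 0.05). Both time course pools entered 1 fit with pool as covariate. The CDK2 fit had mouse as a block, since both populations came from the same animals; 2 further mice listed there had no hashtag signal. SD is over mice. Alternatives were DESeq2 1.42.0, RLE scaling, library totals, no count filter, no cell filter, k-means hashtag calls, each pool, no pool term, cells with a B1-8hi receptor, thinned UMIs, G1 cells and leaving out each mouse. P values set a difference against the residual spread between mice of these libraries, in the CDK2 fit that of the differences within mice. They do not cover variation between libraries. Scripts were tested on simulated data. The 9 genes and all lists were chosen with earlier results of these data known. Genes named from the lists were the 3 largest calls in each direction with an average log2 CPM above 3, receptors and signalling factors, and all other Schlafen genes past the filter; 1 gene of these lists is not reported here; Slfn9 and a few others are given by count.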

Additional observations from a re-analysis of the deposited data

Results flagged for a closer look

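Each member was looked at in each group of 4 to 10 mice. The gap between the most extreme mouse and its nearest neighbour was set against the range of the group (Dixon's ratio). In 12 of 63 groups it exceeded the 95% critical value, where about 3.15 would do so if values were normal and independent. Each of the 12 flags was the highest mouse of its group, and members varied together across mice. So 3.15 is not a chance rate for these groups, which include the treated day 9 mice. The flags are a description without a test. Most flags came from genes with few UMIs.

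Mouse A1 on day 7 stood apart for Bst2, at 76.9 CPM with the next mouse at 34.5, for Slfn5, at 7.36 CPM with the next at 3.06, and for Slfn1, at 2.52 CPM with the next at 1.01. This mouse also had 51.9 CPM of plasmacytoid dendritic cell markers and 3031 CPM of plasma cell markers, and their part in the result was not tested. Mouse D3, untreated on day 10, stood apart for Ifit3, at 16.3 CPM with the next at 3.35, and for Slfn5, at 19.5 CPM with the next at 4.93. Mouse M26, treated on day 10, stood apart for Oasl2, at 5.63 CPM with the next at 2.10, and for Slfn5, at 3.33 CPM with the next at 1.22.

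In the CDK2low population mouse M6 stood apart for Slfn1, at 8.22 CPM and 38 UMIs with the next mouse at 0.897 CPM, and for Rtp4, at 3.89 CPM with the next at 1.33. The CDK2low cells of that mouse held 8.44 CPM of NK cell markers, 17.1 CPM of macrophage and monocyte markers and 137 CPM of T cell markers, and their part in the result was not tested. In the CDK2hi population mouse M1 stood apart for Ifit3, at 0.981 CPM with the next at 0.233. Mouse M01 on day 7 stood apart for Ifit3, at 5.98 CPM with the next at 2.52, and treated day 9 mouse M13 for Slfn1, at 1.39 CPM with the next at 0.368.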

How the results depend on the processing

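Slfn2 kept its direction in every alternative run and its call at 72 h in all but pool 2 alone. The counts of members lower at 72 h, 3 in the main fit, were 5 in G1 cells, 1 with no pool term, with B1-8hi cells, in pool 1 or with thinned UMIs, and 0 in pool 2, and ran from 1 to 6 over left-out mice. The G1 fit at 72 h tested 8 members, and 5.17% of all genes were lower in it. In the CDK2 sort 4 members were lower, 2 in G1 cells or with thinned UMIs (4 to 5 over left-out mice), and 0 were higher, 1 with RLE scaling or in G1 cells (0 to 1 over left-out mice). The G1 fit of that sort tested 4 members, and 31.3% of all genes were lower and 30.7% higher in it. Without the replicate block of mouse the CDK2 sort again gave 4 lower and Slfn2 −1.43, and the block changed no call of a member. Division experiment members higher numbered 2 with no count filter (0 to 2 over left-out mice). At 48 h, 4 members lay below 0, 1 with B1-8hi cells, 2 in pool 1 and 8 in pool 2; left-out mice were not run there.

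Other interferon-stimulated genes higher at 48 h numbered 2, but 0 with DESeq2, RLE, k-means hashtag calls, library totals, no cell filter or B1-8hi cells, and 8 in G1 cells; those lower numbered 9, 0 in G1 cells and 15 with library totals. At 72 h 15 were lower, 8 with B1-8hi cells (8 to 21 over left-out mice). Between day 10 and day 7, 3 were higher, 5 with DESeq2, 7 with no count filter and 1 thinned (1 to 9 over left-out mice). In the CDK2 sort the 1 higher became 5 in G1 cells and 0 with library totals, and the 40 lower became 18 in G1 cells. Pathway genes in the CDK2 sort had 2 higher, 0 in G1 cells or with library totals; at 48 h 1 was higher with B1-8hi cells and 2 were lower in G1 cells in place of 15; at 72 h 4 were lower in G1 cells in place of 2 (1 to 3 lower and 0 to 1 higher over left-out mice). Of the other Schlafen genes, only some of which were abundant enough to test in G1 cells, 0 were called in G1 cells in the CDK2 sort (lower), at 48 h (higher) and between day 10 and day 7, 0 thinned at 48 h and between day 10 and day 7, and 0 at 72 h with B1-8hi cells or thinned; left-out mice gave 0 to 1 between day 10 and day 7.

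Directions turned for Bst2 in the CDK2 sort (−0.063 with library totals) and, in the scaled fit but not in mean CPM, for Isg15 there (0.27 in G1 cells). At 48 h they turned for Irf7 (−0.023 with library totals, −0.43 in pool 2, −0.075 thinned), Isg15 (−0.16 in G1 cells, −0.65 in pool 2), Ifit3 (0.45 in G1 cells, 0.19 in pool 1), Oasl2 (0.12 with B1-8hi cells), Rtp4 (−0.091 in pool 2) and Slfn5 (−0.28 in pool 2). Irf7 in pool 1 was 0.092 at 72 h and −0.10 between day 10 and day 7, where Ifit3 was −0.19 in pool 1 and ran from −0.16 (without mouse D3) to 2.22 over left-out mice. Isg15 in the division experiment ran from −0.74 (without treated replicate 3) to 0.61 over left-out mice. The causes were not tested, except that single pools hold fewer mice. Depth limits Slfn1, Slfn5, Ifit3 and Rtp4, whose means were a few CPM at most.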
